A study of Mus musculus with 7 samples.

Results

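The miRNAs described here are 5 markers of cells other than T cells: mmu-miR-223-3p of myeloid cells, mmu-miR-451a of red cells, mmu-miR-143-3p and mmu-miR-145a-5p of fibroblasts and smooth muscle, and mmu-miR-122-5p of liver cells (the prefix for mouse is left off below). They were chosen by name from the 1881 mouse miRNAs on an Agilent 1-colour miRNA array, as a check on the purity of CD4+ T cells taken from lymph nodes. The cells came from mice of 2 heart disease models. EAM, the myocarditis model, contributed 4 arrays labelled day 6 after induction, and LAD, the myocardial infarction model, contributed 3 arrays labelled day 3 (the series text gives these days the other way round). In both groups the draining lymph nodes were made into cell suspensions. The cells were tagged with a biotinylated antibody against mouse CD4 and retained on a column by streptavidin beads. The labels give no strain, sex or age, do not say whether an array holds RNA of 1 mouse or several, and name no animals outside the 2 models. The p-values below therefore measure the spread between these 7 arrays, which may be partly technical, and model, day and position on the slide cannot be told apart.

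A miRNA is a short RNA that an Argonaute protein carries to messenger RNAs, mostly by pairing of its seed, the bases near its 5′ end. Some miRNAs are made almost entirely by 1 cell lineage, so a trace of them in a purified population can come from a small number of other cells. miR-223 is abundant in neutrophils and monocytes. miR-451a is abundant in maturing red cells, and its short hairpin is cut by Argonaute 2 itself in place of Dicer. miR-143 and miR-145 come from 1 shared transcript of smooth muscle cells and fibroblasts, and miR-122 is the dominant miRNA of hepatocytes.

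The sequences of the miR-223-3p and miR-451a RNAs are shown because they are the markers that were detected and could be compared between the groups, and the array reads each through probes that pair with most or all of the seed. In the mature sequences (RefSeq, GRCm38.p6) the capitals mark the seed, bases 2 to 8.
miR-223-3p: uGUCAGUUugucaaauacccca
miR-451a: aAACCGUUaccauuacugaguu
The mature miR-223-3p lies at chrX:96242884-96242905 on the plus strand of GRCm38.p6, within the long noncoding RNA gene F630028O10Rik. The mature miR-451a lies at chr11:78073186-78073207 on the plus strand, and no annotated gene surrounds its hairpin there. In the hairpins the capitals mark the mature miRNA, which in miR-451a runs from base 17 to base 38 of 72 and so reaches into the loop.
Mir223 hairpin: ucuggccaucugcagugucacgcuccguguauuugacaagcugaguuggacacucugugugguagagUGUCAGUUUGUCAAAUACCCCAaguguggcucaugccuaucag
Mir451a hairpin: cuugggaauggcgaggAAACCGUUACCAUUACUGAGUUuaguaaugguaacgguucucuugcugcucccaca
Each miRNA had 2 probes, each printed in 15 spots per array, and in the probes the capitals mark the bases opposite the seed.
miR-223-3p first probe: tggggtatttgacaAACTGA
miR-223-3p second probe: tggggtatttgacaAACTGAC
miR-451a first probe: aactcagtaatggtAACGGTT
miR-451a second probe: aactcagtaatggtAACGGTTt
The first miR-223-3p probe pairs with bases 3 to 22 of the miRNA and the second with bases 2 to 22. The first miR-451a probe pairs with bases 2 to 22 and the second with bases 1 to 22. None of the other miRNA names on the array whose mature sequence is in the RefSeq table (1608 names matched) shares the seed of miR-223-3p or of miR-451a.

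The arrays of the groups differed in overall brightness, which touches every value below. EAM arrays had 445 to 471 detected miRNAs and LAD arrays 311 to 380, where detected is the mark that the scanner software gives a miRNA on an array. For single probes the software's separate mark of a spot well above background was used, and 303 probes had it for most of their spots on all arrays. Over these 303 probes the 75th percentile of the processed signal was 799 to 1070 intensity units on EAM arrays and 124 to 501 on LAD arrays. The same mass of total RNA was labelled for every array per the labels' protocol, and the labelling spike-ins averaged 11.50 ± 0.14 (SD, n = 4) on EAM arrays and 11.88 ± 0.04 (SD, n = 3) on LAD arrays on the log2 scale. All 7 miRNAs of the leukocyte list, among them miR-142a-3p and miR-150-5p, were detected on all 7 arrays, which fits the leukocyte part of the cell label but does not tell CD4+ T cells from other lymphocytes.

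Of the 5 marker miRNAs, miR-223-3p and miR-451a were detected on all 7 arrays, and miR-143-3p, miR-145a-5p and miR-122-5p were detected on none. Among all 1881 miRNAs, 251 were detected on all 7 arrays and 1328 on none. After quantile normalization between arrays miR-223-3p was lower in EAM than in LAD cells, the LAD level being 3.11-fold higher, but not when arrays were left unscaled or scaled to spike-ins. miR-451a did not pass the test. Values are log2 of the quantile-normalized signal, and the 423 miRNAs that were detected throughout the EAM arrays, throughout the LAD arrays or both were tested with limma. Among those 423, 59.8% passed at a Benjamini-Hochberg adjusted p under 0.05, 36.2% being higher in EAM and 23.6% higher in LAD. The 251 miRNAs detected on all 7 arrays include both tested markers. Fitted alone, 135 of them passed, 52 higher in EAM and 83 higher in LAD. Of the 2 marker miRNAs tested 1 passed, beside these backgrounds.

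The myeloid miRNA miR-223-3p stood at 6.43, 6.48, 6.73 and 6.72 on the EAM arrays, against 9.19, 7.78 and 7.71 on the LAD arrays. Every LAD array lay above every EAM array, and the first LAD array lay well above the other LAD arrays. EAM and LAD values did not overlap for 56.3% of the tested miRNAs, and for 22.2% every LAD array was above every EAM array. The means were 6.59 ± 0.16 in EAM (SD, n = 4) and 8.23 ± 0.83 in LAD (SD, n = 3). The difference of EAM minus LAD was −1.64 on the log2 scale (SE 0.35, 95% interval −2.45 to −0.83, limma adjusted p = 0.0127 over 423 miRNAs), which is the 3.11-fold higher level in LAD. By this difference miR-223-3p ranked 11 of 423 in the direction of LAD. Set against the EAM mean, the first LAD array was 6.07-fold higher, the second 2.29-fold and the third 2.17-fold. In such bulk RNA fewer cells of a type and less of a miRNA per cell cannot be told apart, for this and for the other markers. In the authors' deposited table, which also holds log2 values, miR-223-3p was 6.84, 6.88, 7.08 and 7.06 in EAM and 8.63, 7.88 and 7.80 in LAD.

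The red-cell miRNA miR-451a stood at 6.51, 7.10, 6.59 and 6.63 on the EAM arrays, against 7.79, 6.52 and 6.22 on the LAD arrays. The groups overlapped: the first LAD array was the highest of the 7 and the third LAD array the lowest. The means were 6.71 ± 0.27 in EAM (SD, n = 4) and 6.84 ± 0.83 in LAD (SD, n = 3), and the difference was −0.14 (SE 0.36, 95% interval −0.98 to 0.71, limma adjusted p = 0.74). The interval runs past 0 on both sides, and takes in differences of 0.71 toward EAM and of −0.98 toward LAD. Fitted without the first LAD array, the difference turned to 0.34 (limma adjusted p = 0.204). With limma's array weights it was −0.90 (adjusted p = 0.00954), past the threshold.

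**Figure D1:**
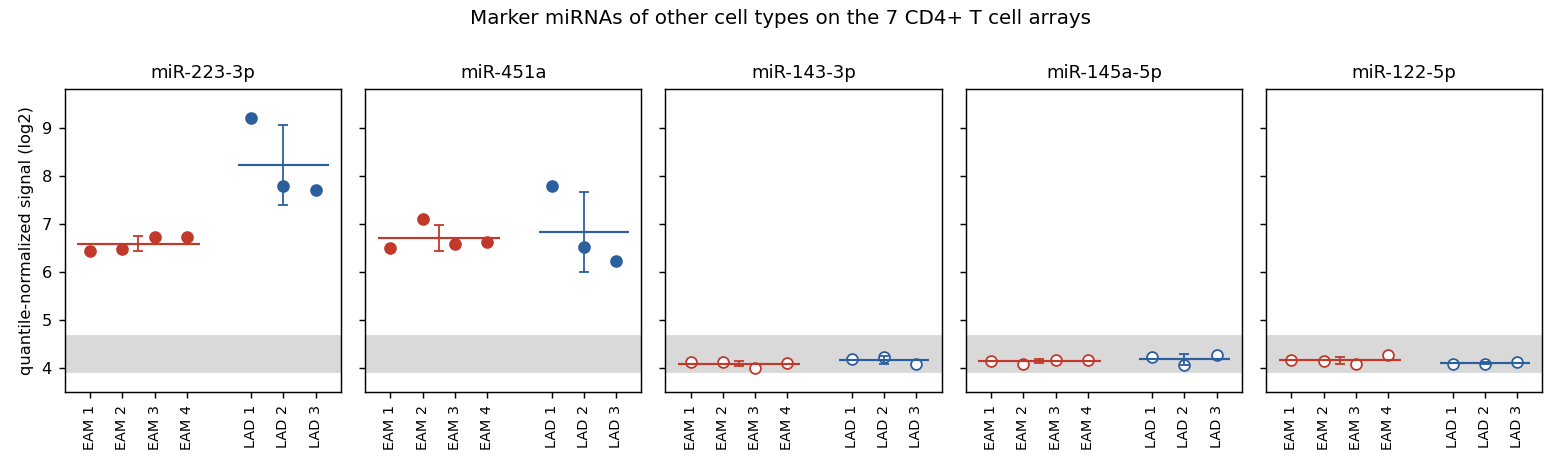
Quantile-normalized signal (log2, vertical axis) of the 5 marker miRNAs on each array (EAM red, LAD blue), with filled points where the miRNA was detected, open points where it was not, lines at the group means and bars of 1 SD; the grey band runs from 3.93 to 4.68, the lowest 5th to the highest 95th percentile per array of miRNAs detected nowhere. miR-223-3p lay at 7.71 or above on LAD arrays and at 6.73 or below on EAM arrays, while miR-143-3p, miR-145a-5p and miR-122-5p stayed in the band on all 7 arrays.

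The stromal and liver markers stood at the level of miRNAs detected on no array. miR-143-3p, a regulator of smooth muscle differentiation, was 4.13, 4.14, 4.00 and 4.11 in EAM and 4.19, 4.24 and 4.09 in LAD. Its cluster partner miR-145a-5p was 4.16, 4.09, 4.18 and 4.17 in EAM and 4.23, 4.08 and 4.28 in LAD. miR-122-5p, which acts in lipid and cholesterol metabolism of the liver, was 4.17, 4.16, 4.09 and 4.27 in EAM and 4.10, 4.09 and 4.13 in LAD. Over all 3 miRNAs and 7 arrays these values span 4.00 to 4.28, and the groups overlap for each. The 1328 miRNAs detected on no array had per-array medians of 4.14 to 4.17, which lie inside that span. The 3 miRNAs are counted among these 1328, so this likeness largely follows from the detection mark and is no separate support. In the authors' deposited table the same 3 miRNAs lay between 5.47 and 5.57. They entered no test of the main comparison, since none was detected. When all 1881 miRNAs were fitted, their differences were −0.07 for miR-143-3p, −0.04 for miR-145a-5p and 0.06 for miR-122-5p (limma adjusted p = 0.327, 0.587 and 0.341).

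Counted by spots, these 3 miRNAs had 630 measurements over the arrays, and 1 of them (0.159%), a miR-145a-5p spot, was well above background by the scanner software's mark. The negative-control spots, 1000 on each array, had 0% to 1.8% with the same mark. The medians of the 15 spots of each probe lay between −3.5 and 1.49 intensity units, against medians of 0.72 to 2.21 for the negative controls. These markers were thus not detectable above the background of the arrays. That statement is limited by the number of arrays and by the sensitivity of each. It is weaker for LAD, whose dimmer arrays had 311 to 380 detected miRNAs, beside 445 to 471 on EAM arrays.

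For the 2 detected markers the spots were clear. All 210 spots of miR-223-3p were well above background on every array, as were 205 of 210 spots of miR-451a, the 5 others being on the third LAD array, and no spot was saturated. The probes are not compared in level with each other, since probes differ in affinity, but the group difference can be read from each. Of the miR-223-3p probes the first gave −1.32 (limma adjusted p = 0.0156 over 976 probes) and the second −1.96 (adjusted p = 0.013). The miR-451a probes gave −0.09 (adjusted p = 0.82) and −0.18 (adjusted p = 0.692). Both probes of a miRNA had the same sign.

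Before any scaling between arrays, the picture for miR-223-3p was different. The scanner software's total gene signal, in intensity units, was 59.7, 58.2, 58.3 and 67.3 for miR-223-3p on EAM arrays, against 70.4, 75.1 and 24.7 on LAD arrays. The first 2 LAD arrays were slightly above all EAM arrays and the third was below them. The means were 60.9 ± 4.34 in EAM (SD, n = 4) and 56.8 ± 27.8 in LAD (SD, n = 3), with an exact two-sided permutation p of 0.857. For miR-451a the signal was 61.4, 93.9, 50 and 60.2 on EAM arrays, against 32.1, 22.2 and 9.68 on LAD arrays. Here every LAD array was below every EAM array, with means of 66.4 ± 19.0 in EAM and 21.3 ± 11.2 in LAD (exact permutation p = 0.0571, the smallest that 35 splits of 4 and 3 arrays allow, and 0.114 after adjustment over both miRNAs). Most miRNAs moved this way: in background-corrected values with no scaling, 299 of the 423 tested passed toward EAM and 2 toward LAD. The median difference was then 1.17, beside 1.18 for miR-451a. The share of miRNAs that separates so by unscaled gene signal was not computed.

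**Figure D2:**
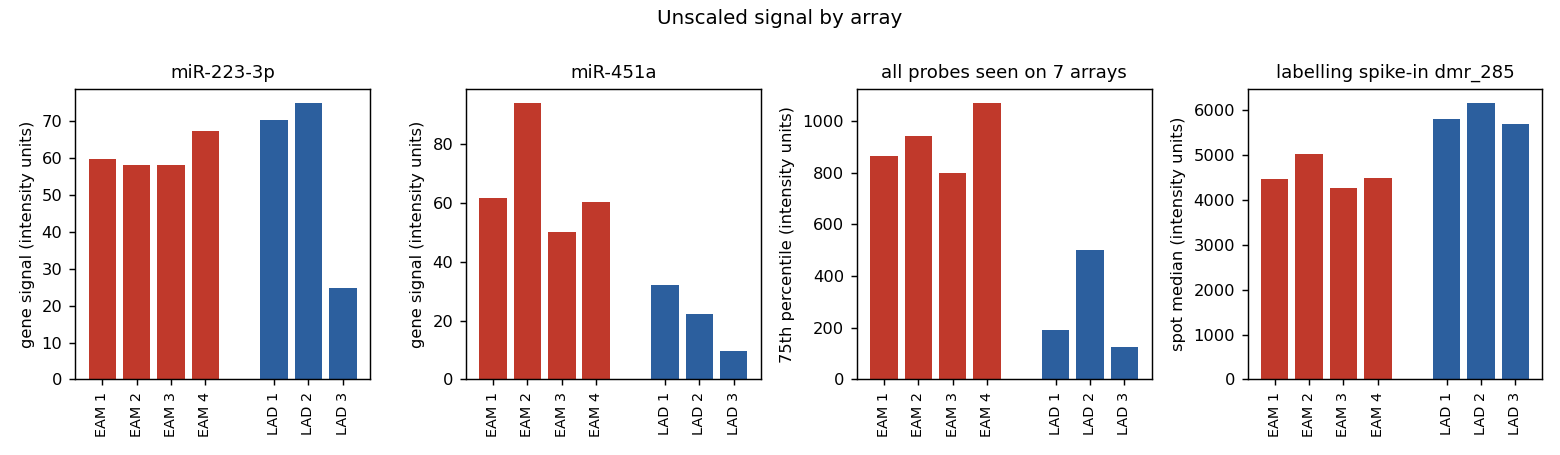
Unscaled signal in intensity units on each array (EAM red, LAD blue): the gene signal of miR-223-3p, that of miR-451a, the 75th percentile over the 303 probes well above background on all arrays, and the spot median of a labelling spike-in. miR-223-3p reached 70.4 and 75.1 on the first 2 LAD arrays, beside 58.2 to 67.3 in EAM, while the 75th percentile was 124 to 501 in LAD and 799 to 1070 in EAM.

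As a proportion of the summed gene signal of its array, miR-223-3p made up 0.0277%, 0.0280%, 0.0283% and 0.0262% on EAM arrays, against 0.226%, 0.0887% and 0.141% on LAD arrays. miR-451a made up 0.0285%, 0.0452%, 0.0242% and 0.0235% in EAM and 0.103%, 0.0262% and 0.0553% in LAD, so its groups overlapped. In rank among the miRNAs detected on an array, miR-223-3p was at percentile 71.1, 71.5, 75.3 and 75.2 in EAM and at 87.7, 81.8 and 77.2 in LAD. The rank of miR-451a was 71.7, 80.4, 71.5 and 73.2 in EAM and 78.6, 66.3 and 51.8 in LAD. The proportion and the rank of miR-223-3p were therefore higher on every LAD array than on any EAM array, on arrays whose total signal was lower. Its unscaled signal overlapped between the groups. By the quantile-normalized values 22.2% of the tested miRNAs were higher on every LAD array. The share that separates so by proportion or by rank was not computed.

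The difference was computed on 13 sets of values, made with other background corrections, normalizations or summaries of the probes. In the 11 sets that put the arrays on a common scale through the miRNAs themselves, miR-223-3p differed by −2.09 to −0.89 and miR-451a by −0.60 to 0.43. With no scaling the differences were −0.02 for miR-223-3p (limma adjusted p = 0.965) and 1.18 for miR-451a (adjusted p = 0.015). With scaling to the labelling spike-ins, an alternative added after seeing the data, they were 0.37 (adjusted p = 0.314) and 1.56 (adjusted p = 0.00272), so that the direction for both miRNAs was then toward EAM. The scale also moved all other miRNAs: the median difference of the tested miRNAs was 0.31 in the main values, 1.17 with no scaling and 1.55 with the spike-ins. Taken relative to that median, the difference of miR-223-3p was −1.95 in the main values and ran from −2.55 to −1.18. The same measure for miR-451a was −0.45 in the main values and ran from −0.88 to 0.01. No scaling, median centring and the spike-ins shift all miRNAs of an array alike, so by construction they share 1 value of this measure (−1.18 for miR-223-3p and 0.01 for miR-451a) and do not count separately.

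**Figure D3:**
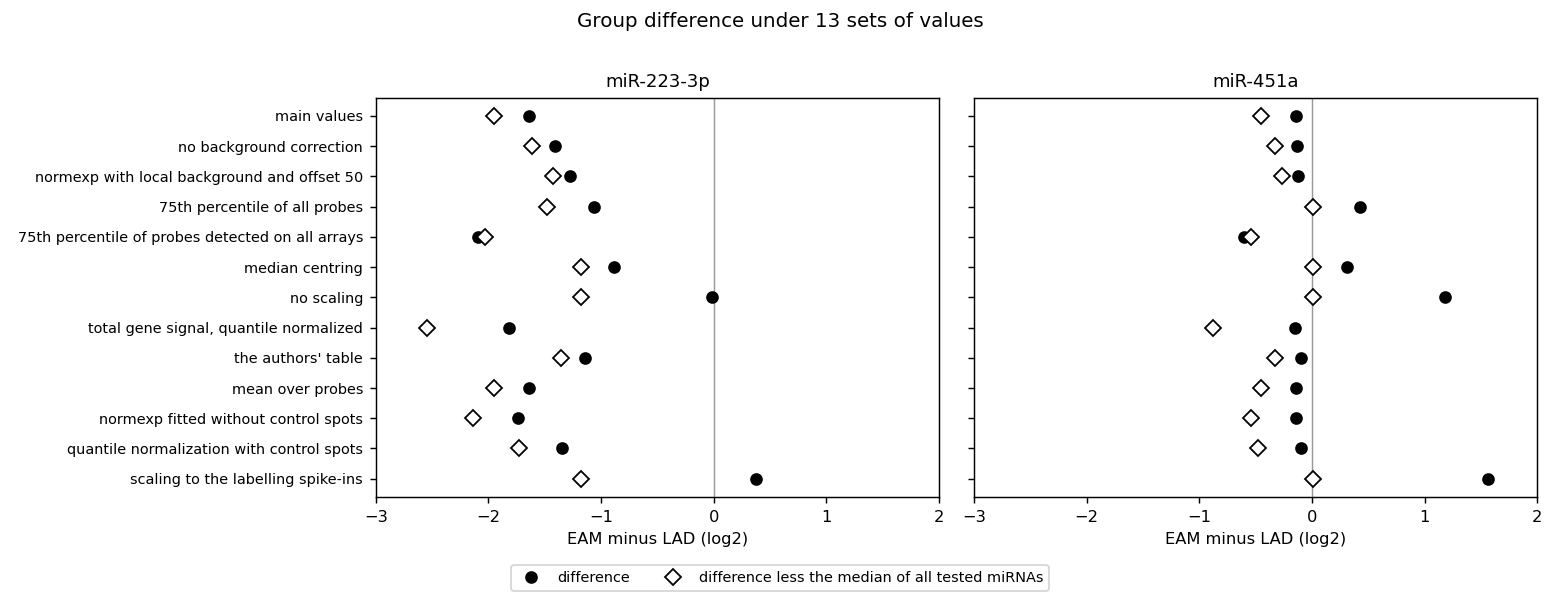
Difference of EAM minus LAD (log2, horizontal axis) of miR-223-3p and miR-451a under 13 sets of values, as such (filled circles) and less the median difference of all tested miRNAs in the same set (open diamonds). For miR-223-3p the diamonds lie between −2.55 and −1.18, while the circles reach 0.37 with scaling to the spike-ins; for miR-451a the diamonds lie between −0.88 and 0.01.

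A second way to take out the brightness of an array is to set the markers against leukocyte miRNAs of the same array. Only the change of such a difference between groups can be read, since the probes of different miRNAs differ in affinity. miR-142a-3p is made by nearly all blood-forming cells and miR-150-5p by mature lymphocytes. miR-223-3p minus miR-142a-3p was −8.78, −8.92, −8.45 and −8.49 in EAM and −5.77, −7.08 and −7.16 in LAD, with no overlap. The means were −8.66 ± 0.23 in EAM (SD, n = 4) and −6.67 ± 0.78 in LAD (SD, n = 3), a difference of −1.99 with an exact two-sided permutation p of 0.0571, or 0.0761 adjusted over 4 such pairs. No comparison of 4 with 3 arrays can give a smaller exact p. How many of the tested miRNAs separate so against miR-142a-3p or miR-150-5p was not computed. Against miR-150-5p, which was itself 1.41 log2 units higher in EAM (limma adjusted p = 0.038), miR-223-3p differed by −3.05 (exact permutation p = 0.0571, adjusted 0.0761). miR-451a differed by −0.49 against miR-142a-3p (exact permutation p = 0.4), with overlapping groups, and by −1.55 against miR-150-5p (exact permutation p = 0.0571, adjusted 0.0761). The size of the miR-451a difference from miR-142a-3p depended on the values used: it was −1.55 with no scaling and −1.39 in values of the authors' deposited table (exact permutation p = 0.0571 each), −0.29 with the quantile-normalized total gene signal (exact permutation p = 0.743), and −0.05 in the main values without the first LAD array. The miR-223-3p difference from miR-142a-3p was −2.74 with no scaling and −2.42 in values of the authors' deposited table. With no scaling miR-142a-3p itself was 2.73 higher in EAM, while miR-223-3p differed by −0.02. In the authors' deposited table miR-142a-3p was 1.29 higher in EAM, while miR-223-3p differed by −1.14. In the main values miR-142a-3p was 0.35 higher in EAM. Each such difference thus holds the change of both miRNAs.

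The 2 detected markers also differed from each other in how they moved. The value of miR-223-3p minus that of miR-451a, a contrast chosen after seeing the data, was −0.09, −0.62, 0.13 and 0.09 on EAM arrays and 1.40, 1.26 and 1.49 on LAD arrays. The first LAD array, which was the highest for both miRNAs, did not stand apart from the other LAD arrays here. The means were −0.12 ± 0.35 in EAM (SD, n = 4) and 1.38 ± 0.11 in LAD (SD, n = 3), a difference of −1.50 (exact two-sided permutation p = 0.0571). Other background corrections, normalizations and probe summaries gave −1.67 to −1.03. A factor common to a whole array cancels in this contrast, so no scaling, median centring and the spike-ins give 1 value by construction (−1.19). Every LAD array thus had more miR-223-3p relative to miR-451a than any EAM array. The share of tested miRNAs that separates so against miR-451a was not computed.

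**Figure D4:**
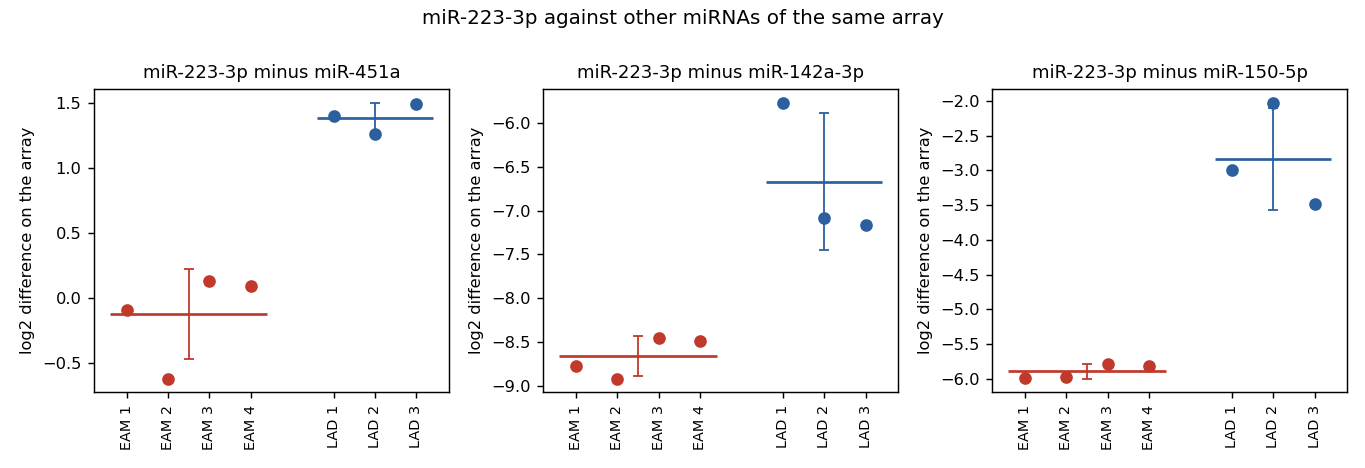
Log2 value of miR-223-3p less that of miR-451a, of miR-142a-3p and of miR-150-5p on the same array (EAM red, LAD blue), with group means and bars of 1 SD; each panel has its own scale. In every panel the LAD arrays lie above the EAM arrays, and for miR-451a they lie close together at 1.26 to 1.49. The share of all tested miRNAs that would separate so was not computed.

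Other markers of the same cell types gave little further signal. The lists held 41 markers of other cell types on the array, the 5 miRNAs included, and 36 of the 41 were detected on no array. On the whole array 1328 of 1881 miRNAs were detected on none. The counts of undetected miRNAs in each list here and below are to be read beside that share. Of 5 myeloid miRNAs only miR-223-3p was detected, and the other 4 lay between 3.84 and 4.71. The summed gene signal of the myeloid list, all of it from miR-223-3p, was 58.2 to 67.3 in EAM and 24.7 to 75.1 in LAD. Of 7 red-cell and platelet miRNAs only miR-451a was detected. The other 6 lay between 3.93 and 4.46. The summed signal of that list was 50 to 93.9 in EAM and 9.68 to 32.1 in LAD.

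All 12 miRNAs of the stromal list were undetected on all 7 arrays (4.00 to 4.62), as were all 8 of the heart and skeletal muscle list (3.95 to 4.90) and all 3 of the neural list (3.92 to 4.23). Of the endothelial miRNAs, miR-126a-3p was detected on 3 EAM and 2 LAD arrays, at 4.82, 5.04, 4.79 and 5.17 in EAM and 4.36, 5.90 and 5.28 in LAD, with overlapping groups, and was not tested. Of the 4 liver miRNAs, 2, miR-122-5p among them, were not detected, while miR-192-5p and miR-194-5p, which the gut epithelium also makes, were seen. miR-192-5p was detected on 4 EAM and 2 LAD arrays and differed by 0.51 (limma adjusted p = 0.131), and miR-194-5p on 4 EAM and 1 LAD arrays and differed by 0.66 (adjusted p = 0.0598). Both entered the test only through their detection on every EAM array. That filter favours a difference toward EAM, so no group difference is read from these 2 tests. The liver list summed to 46.5 to 62.0 intensity units in EAM and 0 to 24.4 in LAD.

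Set beside these, the leukocyte list summed to 41800 to 57900 intensity units in EAM and 2570 to 12500 in LAD. Of its 7 miRNAs 4 were higher in EAM, beside 36.2% of all tested miRNAs: miR-142a-3p by 0.35 (limma adjusted p = 0.0341), miR-150-5p by 1.41, miR-155-5p, induced on lymphocyte activation, by 1.12 (adjusted p = 0.0264), and miR-146a-5p, a brake on NF-kB signalling, by 1.88 (adjusted p = 0.0204). miR-181a-5p, which tunes T cell receptor signalling, was lower in EAM, with a difference of −3.18 (adjusted p = 0.0118), and miR-142a-5p and miR-342-3p did not pass. The median difference of the list was 0.58, beside 0.31 for all tested miRNAs. These counts moved with the scaling, as did those over the whole tested set. With no scaling 6 of the 7 passed toward EAM and 0 toward LAD, beside 299 and 2 of the 423 tested. With the quantile-normalized total gene signal 1 passed toward EAM and 1 toward LAD, beside 85 and 81 of the 423. What part other cells in the selected fraction had in the miR-223-3p difference was not tested.

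**Figure D5:**
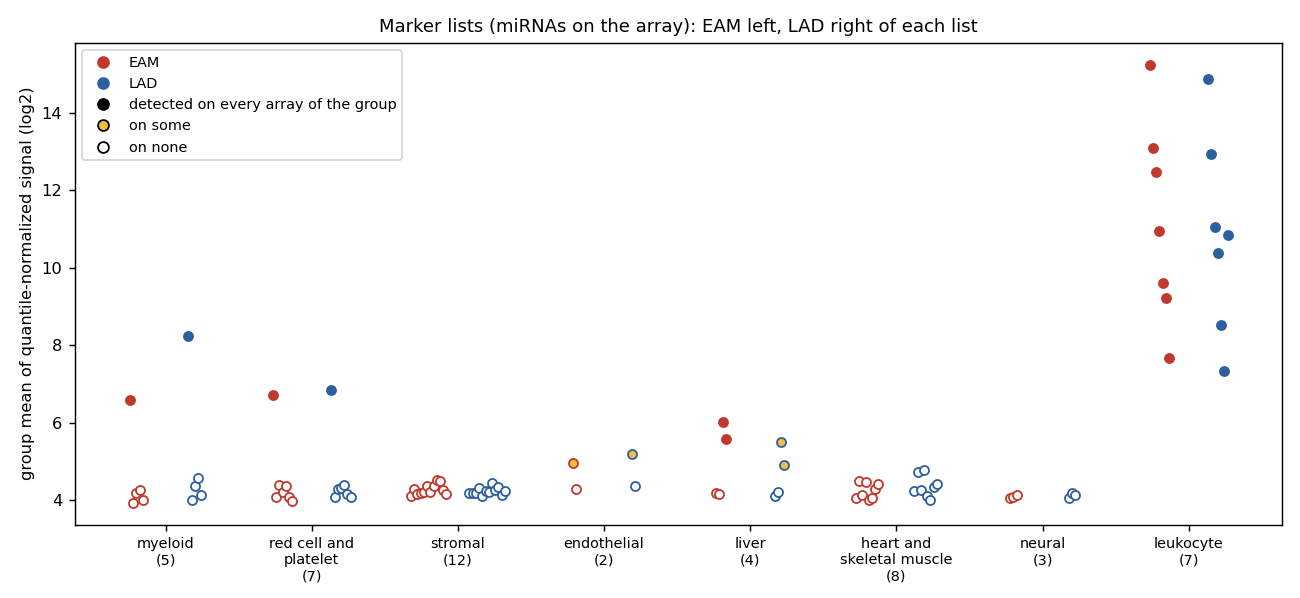
Group mean of the quantile-normalized signal (log2, vertical axis) of every listed miRNA on the array, by list, with EAM points (red) left of LAD points (blue); filled points were detected on every array of the group, yellow ones on some and open ones on none, and the number on the array stands under each list. Beside miR-223-3p and miR-451a, the markers with any detection outside the leukocyte list are miR-126a-3p, miR-192-5p and miR-194-5p.

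The miRNAs whose values over the 7 arrays were most like those of miR-223-3p were miR-664-3p (Pearson r = 0.899), miR-125a-5p (r = 0.895) and miR-18b-3p (r = 0.888). Of these only miR-18b-3p passed the test, with 4.75, 4.88, 4.87 and 4.87 in EAM and 5.37, 5.22 and 5.38 in LAD (difference −0.48, limma adjusted p = 0.0142). For miR-451a the closest were miR-125a-5p (r = 0.79), miR-23a-3p (r = 0.731) and miR-24-3p (r = 0.685), none of which passed. The values of miR-125a-5p were 4.71, 4.85, 4.82 and 4.78 in EAM and 5.15, 4.95 and 4.81 in LAD, highest on the same LAD array as both markers. miR-18b-3p and miR-125a-5p were each detected on 6 of the 7 arrays. Their lowest values, 4.75 and 4.71, lay close to 4.68, the highest 95th percentile per array of miRNAs detected nowhere. The correlations are descriptions over 7 arrays that share their group and overall brightness.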

How the data were processed

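Intensity values and 0 or 1 marks of each spot come from the scanner output deposited by the authors, made with Agilent Feature Extraction 10.7.3.1 per the file headers. A log2 table deposited by the authors was an alternative; RMA is named in the submitters' processing notes without a version. From the mean spot signal, normexp background correction (fitted on all spots), quantile normalization of non-control spots, log2, the median over the replicate spots of a probe (spots marked as outliers left out) and median polish over probes gave the main values. miRNAs detected throughout the EAM arrays, the LAD arrays or both were tested with lmFit and eBayes (limma 3.58.1, R 4.3.3), with Benjamini-Hochberg adjustment. The fit was tested on simulated data. Single values used exact permutation over arrays. The members and lists were chosen with earlier results of these data known. Named are the 5 members, listed miRNAs detected on at least 1 array, and the 3 tested miRNAs most correlated with each detected member. Replicate numbers were not used as pairs in the main fit (deviations of same-numbered arrays correlated at 0.2, −0.16 and −0.19). Among the LAD arrays only the first was most like the EAM array of its own number. So few arrays cannot settle whether the numbers pair them. Alternatives covered background correction, scaling, probe summary, detection filter, array weights, robust fitting, the replicate number as a block, and each array left out. Sequences and positions are RefSeq's (GRCm38.p6), and probe sequences are those of the scanner files.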

Additional observations from a re-analysis of the deposited data

How the results depend on the processing

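The groups hold 4 and 3 arrays, each group in its own slide column, with dimmer arrays in LAD, so no array-wide factor can be told apart from the model. The miR-223-3p difference (−1.64) kept its direction and its call under 23 of 26 alternatives, which are not independent. Other detection filters, robust fitting and the mean over its 2 probes leave the estimate at −1.64 by construction. The difference was −0.02 with no scaling (limma adjusted p = 0.965) and 0.37 with scaling to the spike-ins (adjusted p = 0.314). These settings do not scale the arrays through the miRNAs. With the replicate number as a block the difference was −1.68 (adjusted p = 0.0907), and with each array left out it was −1.90 to −1.16. miR-451a (−0.14) turned to 0.43 with the 75th percentile of all probes, 0.31 with median centring, 1.18 with no scaling, 1.56 with the spike-ins and 0.34 without the first LAD array (−0.45 to 0.34 with each array left out), and was called at −0.90 with array weights. The difference from miR-142a-3p kept its sign in the other sets of values and with each array left out, at −2.82 to −1.54 for miR-223-3p and −1.55 to −0.05 for miR-451a; sets that differ by a constant per array give the same value by construction. Of 423 miRNAs 253 passed (153 higher in EAM, 100 in LAD). The count was 166 with the total gene signal and 445 of 1881 with no filter. With detection on all 7 arrays it was 135 of 251 (52 higher in EAM, 83 in LAD). It was 393 with the spike-ins (391 and 2), and 0 with the replicate block, where 180 had an unadjusted limma p under 0.05. It was 59 to 379 with each array left out: 120, 115, 90 and 59 without EAM arrays 1 to 4, and 147, 379 and 124 without LAD arrays 1 to 3. Scaled to the upper quartile (75th percentile) of probes seen on all arrays, it split into 75 and 101, and with no scaling into 299 and 2.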
